A study of Mus musculus with 2 samples.

Results

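The genes described here encode the enzymes that take acetyl groups off histones and other proteins, the enzymes that put them on, and coregulators that work beside both. They are 31 genes chosen by name, out of 21853 protein-coding genes on chromosomes 1 to 19, X and Y. By role they are 7 classical deacetylases (Hdac3, Hdac4, Hdac5, Hdac7, Hdac9, Hdac10, Hdac11), 7 sirtuins (Sirt1 to Sirt7), 9 acetyltransferases (Kat2a, Kat2b, Kat5, Kat6a, Kat6b, Kat7, Kat8, Ep300, Crebbp), 4 coactivators (Ncoa1, Ncoa2, Ncoa3, Med1), the corepressor Ncor1, and 3 bromodomain genes (Brd1, Brd2, Brd3). The 14 deacetylases of both kinds were set against the 13 acetyltransferases and coactivators.

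Chromatin bound by lysine-specific demethylase 1 (LSD1, encoded by Kdm1a) was mapped in cultured mouse brown adipocytes by chromatin immunoprecipitation followed by sequencing. The LSD1 ChIP group is 1 library, made with an antibody from the submitters' own laboratory, and the Input group is 1 library of DNA taken without antibody. Both came from primary cells of the C57BL/6 N strain, with a genotype labelled control, that had been passaged 2 to 3 times. In both, differentiation was induced with dexamethasone and rosiglitazone at 1 µM each, insulin at 850 nM, isobutylmethylxanthine at 500 µM, indomethacin at 125 nM and T3 at 1 nM, and the cells were fixed for 5 min on day 10. Serum was listed at 20% for both. No replicates were listed, so every value below is a description of 1 LSD1 library and carries no test. The data are 59175 LSD1 peaks, each with the authors' own score (median 111, quartiles 86.7 and 193, range 50.1 to 3224). The unit of this score is stated nowhere in the sources used. The list holds no read counts, so the depth is unknown, and a gene without a listed peak is not thereby shown to lack LSD1. A peak list holds no expression values either. All 5 adipocyte marker genes looked at (Pparg, Cebpa, Prdm16, Ebf2 and Ppargc1a) had a promoter peak, against 55.8% of all protein-coding genes. A promoter peak is thus common, and these peaks do not settle the identity of the cells.

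Acetylation of histone lysines loosens nucleosomes and is read by bromodomain proteins, and its level at a gene reflects the balance between acetyltransferases and deacetylases. Classical deacetylases use zinc, whereas sirtuins use NAD and so tie deacetylation to the energy state of the cell. In brown fat, nuclear receptors and their coactivators recruit acetyltransferases to thermogenic genes, and corepressors carrying deacetylases oppose them. LSD1 itself removes methyl groups from histone lysines and is found in complexes with CoREST proteins and deacetylases.

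The promoters differed widely in sequence, and 6 stretches of 200 bp are shown as 3 pairs, chosen to show a contrast in either the score or the CpG count of the stretch. Positions are on the mm10 build (the GRCm38.p6 chromosomes of RefSeq), sequences run 5′ to 3′ along the strand of the gene, and capitals mark exact matches to GGGCGG (the core of SP and KLF sites, CCGCCC on the other strand), CGCATGCG (NRF1) or TGANTCA (AP-1). Hdac7 and Sirt7 are shown around the midpoints of peaks of nearly equal score. Kat2b and Kat5 are shown around the midpoints of the highest- and lowest-scoring acetyltransferase peaks. Brd2 and Crebbp are shown just upstream of their outermost coding starts. The peak over Brd2 is the highest-scoring of all members, and no peak lies over the Crebbp stretch.
Hdac7, chr15:97832281-97832480, minus strand: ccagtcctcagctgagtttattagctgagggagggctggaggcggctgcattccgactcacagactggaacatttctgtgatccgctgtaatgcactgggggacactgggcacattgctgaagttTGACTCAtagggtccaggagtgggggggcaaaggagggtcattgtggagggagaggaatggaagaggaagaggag
Sirt7, chr11:120624706-120624905, minus strand: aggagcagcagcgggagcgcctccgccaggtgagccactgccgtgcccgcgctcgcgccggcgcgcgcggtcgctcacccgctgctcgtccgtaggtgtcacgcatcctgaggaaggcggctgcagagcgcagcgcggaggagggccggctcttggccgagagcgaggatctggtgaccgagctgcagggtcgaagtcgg
Kat2b, chr17:53567705-53567904, plus strand: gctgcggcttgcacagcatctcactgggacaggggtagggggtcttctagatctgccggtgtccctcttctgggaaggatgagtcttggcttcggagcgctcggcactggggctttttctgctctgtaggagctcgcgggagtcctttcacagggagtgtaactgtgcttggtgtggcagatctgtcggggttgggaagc
Kat5, chr19:5609759-5609958, minus strand: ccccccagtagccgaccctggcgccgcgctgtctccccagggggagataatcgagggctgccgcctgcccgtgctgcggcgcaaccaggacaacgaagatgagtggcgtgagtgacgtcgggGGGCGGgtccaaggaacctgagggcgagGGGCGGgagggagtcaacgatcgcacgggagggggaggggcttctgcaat
Brd2, chr17:34122601-34122800, minus strand: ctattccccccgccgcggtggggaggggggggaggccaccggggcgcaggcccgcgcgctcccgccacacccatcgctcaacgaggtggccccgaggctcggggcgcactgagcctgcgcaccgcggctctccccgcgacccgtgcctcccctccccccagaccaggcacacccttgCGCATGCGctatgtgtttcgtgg
Crebbp, chr16:4213998-4214197, minus strand: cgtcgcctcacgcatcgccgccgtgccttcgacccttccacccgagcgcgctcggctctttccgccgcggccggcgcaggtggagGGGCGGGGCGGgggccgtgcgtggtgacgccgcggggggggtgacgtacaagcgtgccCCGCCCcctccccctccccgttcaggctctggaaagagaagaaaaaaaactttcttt

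The Hdac7 stretch holds 3 CpG dinucleotides and the Sirt7 stretch 28, under peaks of score 608 and 609. The Kat2b stretch holds 8 CpGs under a peak of score 1067, and the Kat5 stretch holds 19 under a peak of score 77.6. Upstream of Brd2 there are 23 CpGs under a peak of score 2053, and upstream of Crebbp there are 27 with no peak. The pairs were picked for these contrasts. The observed over expected CpG ratio was also taken over 500 bp on either side of each start, and the highest of each gene kept. It was 0.843 at Hdac7 and 0.803 at Sirt7, 0.887 at Kat2b and 0.646 at Kat5, and 0.826 at Brd2 and 1.03 at Crebbp. The Brd2 value belongs to an internal start, and the outermost start beside the stretch shown had 0.740. The Hdac7 and Kat2b stretches lie outside the windows that gave their ratios, so those ratios do not describe them.

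LSD1 peaks lay over the promoters of nearly all of these genes. A gene counted as promoter-bound if any peak reached, even by 1 bp, into the 1 kb on either side of a protein-coding transcript start. By this rule 29 of the 31 genes (93.5%) were bound, against 12199 of 21853 protein-coding genes (55.8%). Genes whose promoter CpG ratio was above the median of all genes (observed over expected CpG within 500 bp of a start, the highest over the starts) were bound in 86.6% of cases. The ratio was above that median in 22 of the 31 genes, and the shares bound in each gene's own CpG decile add up to 25.1 genes. The members also had more annotated coding starts, a median of 4 against 2, and across all genes 82.0% with 5 or more starts were bound against 44.1% with 1. The excess over 55.8% thus moved with CpG content and number of starts, whose part in it was not tested.

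Among the 29 bound genes the highest promoter score had a median of 479 (quartiles 249.6 and 609), against a median of 315 (quartiles 156 and 570) over all bound genes. It stood above the median of the gene's own CpG decile in 19 of the 29. Promoter peaks among the highest-scoring 10% of the list (score of at least 391) were present at 16 of 31 members (51.6%). The share was 22.8% over all protein-coding genes and 40.2% over genes with a promoter CpG ratio above the median of all genes. Bound genes of that CpG-rich set had a median highest score of 361, and 22 of the 31 members have such a ratio. The part of CpG content in the higher scores of the members was not tested. Peaks over the members were wide, with a median width of 1215 bp against 1027 bp for all bound genes. Width and log10 score went together across the 29 members (Pearson r = 0.906, Spearman rho = 0.857), which all come from 1 library and are not replicates. The plot of promoter scores by gene shows the spread within each class.

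**Figure D1:**
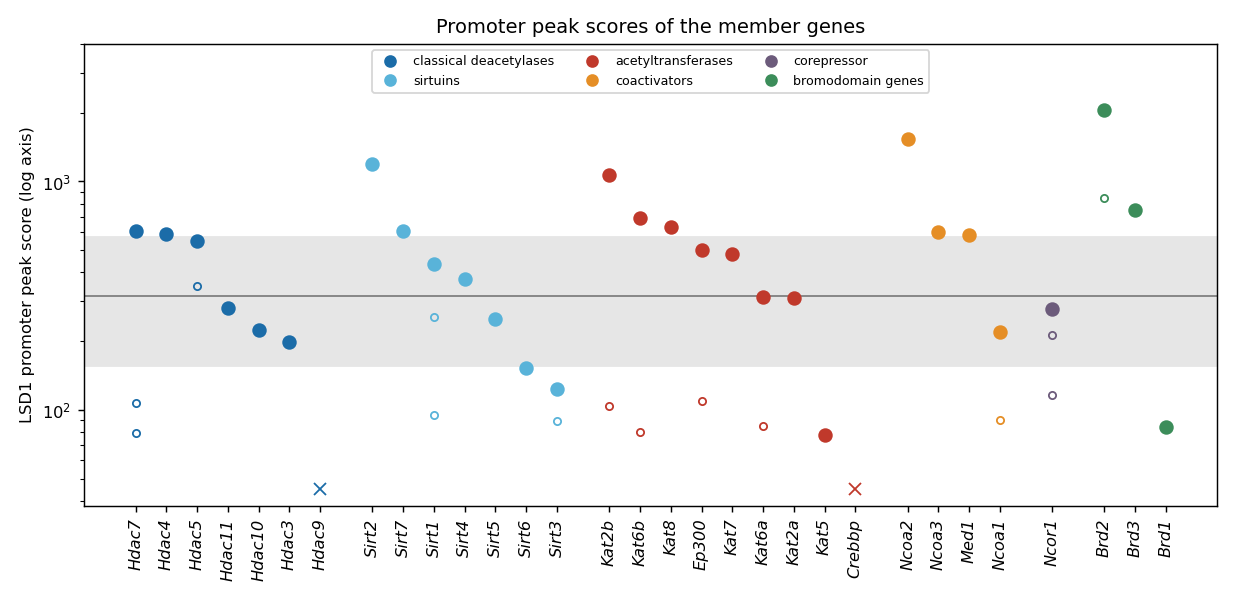
LSD1 promoter peak scores (log axis) of the 31 genes, grouped and coloured by role and ordered by score within each role. Filled points are the highest promoter peak, open points other promoter peaks and crosses genes without one (Hdac9 and Crebbp), and the grey line and band are the median of 315 and the quartiles over all promoter-bound genes. Brd2 stands highest at 2053 and Kat5 lowest at 77.6.

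Of the 7 classical deacetylases, 6 had a promoter peak, with a median highest score of 413 and a range from 198 to 608. The class IIa genes, whose products shuttle between nucleus and cytoplasm and bind MEF2 factors, split into 3 with a high-scoring peak and 1 without any. Hdac7 had the highest score of the class, 608 at chr15:97831736-97833026, centred 614 bp upstream of an internal coding start and 12121 bp inside the outermost start of the gene. Its other promoter peaks scored 107 and 79.2, and its 4 outermost starts, with CpG ratios from 0.228 to 0.260, had no peak. Hdac4 scored 588 at chr1:92179186-92181354, over exon 1 of its principal transcript, centred 27 bp from a coding start and 15429 bp inside the annotated gene, and the peak was 2169 bp wide. Hdac5 scored 548 at chr11:102229324-102230522 over the starts at its 5′ end, and 347 at chr11:102218296-102219309 over a CpG-poor start (ratio 0.302) in intron 2.

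Hdac9, the remaining class IIa gene, had no peak within 1 kb of its 5 coding starts. Its highest CpG ratio was 0.351, in the fourth decile of all genes, where 33.6% of genes were bound. The peak nearest to a start lay 1862 bp downstream of it, at chr12:34526146-34526739, with a score of 76.8. Another 10 peaks, with scores from 53.8 to 160.2, were spread over this gene of 869516 bp.

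The other classical deacetylases carried 1 promoter peak each, of lower score, at their starts. Hdac11, the class IV enzyme, which limits thermogenesis in mouse brown fat, scored 279 at chr6:91156253-91157156 over its exon 1. Hdac10, which deacetylates polyamines, scored 223 at chr15:89128248-89129219. Hdac3, the catalytic subunit of the NCoR corepressor complex, scored 198, with the peak centred 253 bp upstream of its start and 122 bp from the start of Rell2 on the opposite strand. These 3 genes lay in the fifth CpG decile, whose bound genes had a median score of 238, and of these Hdac11 alone stood above it.

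All 7 sirtuins had a promoter peak, with a median highest score of 374 and a range from 123 to 1191. Sirt2, a mainly cytoplasmic deacetylase of tubulin and other proteins, scored 1191 at chr7:28765824-28767522, above 94.9% of bound genes. This peak was centred 62 bp upstream of Sirt2 and 33 bp from the start of Nfkbib, which runs the other way, so it cannot be assigned to either gene. Sirt7, a chromatin-bound nucleolar sirtuin, scored 609 at chr11:120624074-120625539, with the midpoint in exon 2. Sirt6, a nuclear deacetylase of histone H3, scored 152 at chr10:81627231-81628183 over its exon 1, with a start of Ankrd24 833 bp from the midpoint.

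Sirt1, the nuclear sirtuin that deacetylates PGC-1 coactivators, depended on which start was counted. Its highest value, 433 at chr10:63382250-63383183, was centred 1012 bp upstream of the outermost Sirt1 start and 273 bp from the start of Dnajc12, so that the peak overlapped the 1 kb region with its midpoint outside it. The CpG-dense starts of Sirt1 (highest ratio 1.06) lie far into the gene model, and the peaks around them, 43410 and 42077 bp inside the outermost start, scored 255 and 94.8.

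The mitochondrial sirtuins carried moderate or low scores at their starts. Sirt4, which acts on mitochondrial metabolic enzymes, scored 374 at chr5:115483874-115485016 over its exon 1. Sirt5, which removes succinyl and malonyl groups, scored 249.6 at chr13:43365350-43366221, its only peak. Sirt3, the main mitochondrial deacetylase, had the lowest score of all deacetylases, 123 at chr7:140881656-140882334, with the midpoint 27 bp from the start of Psmd13 on the other strand, and a further peak of 89.0 at an internal start. Of these 3 genes, Sirt4 and Sirt5 stood above the median of their CpG decile (238) and Sirt3 below its own (371).

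Of the 9 acetyltransferases, 8 had a promoter peak, with a median highest score of 490.3 and a range from 77.6 to 1067. Kat2b (PCAF) and Kat2a (GCN5), the paralogous catalytic subunits of the SAGA and ATAC complexes, differed: Kat2b scored 1067 at chr17:53566608-53569003, and Kat2a scored 309 at chr11:100712022-100712926. The Kat2b peak was 2396 bp wide and centred 834 bp downstream of the nearest start, in intron 1, while the Kat2a peak was 905 bp wide and centred 9 bp from its start. A start of Hspb9 lay within 1 kb of the edge of the Kat2a peak. Both genes stood above the median of their CpG decile (386 for Kat2b and 238 for Kat2a).

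The MYST family members ranged over most of the scale. Kat6b (MORF) scored 690.3 at chr14:21499825-21501662, centred 110 bp from an internal start and 19309 bp inside the gene, with a further promoter peak of 80.25. Kat6a (MOZ), its paralogue, scored 313 at chr8:22859713-22860717 in intron 1, and 84.7 upstream of the start. Kat8 (MOF), which acetylates histone H4, scored 630.5 at chr7:127911798-127913012. Kat7 (HBO1), which acetylates histone H3 and H4 at replication origins and genes, scored 479 at chr11:95309155-95310621, and had no other peak nearby. Kat5 (TIP60), the catalytic subunit of NuA4, had the lowest score of all bound members, 77.6 at chr19:5609564-5610154, above 2.74% of bound genes, and this was its only peak from 10 kb upstream to the gene end. With promoters of 2.5 kb a peak of 248 past the gene end counted as well, by an internal start, and Kat5 was then no longer the lowest. Of these 5 genes Kat6b, Kat7 and Kat8 stood above the median of their CpG decile, and Kat5 and Kat6a below.

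The paralogues Ep300 and Crebbp, the acetyltransferases most closely tied to enhancers, fell on opposite sides of the promoter call. Ep300 scored 501 at chr15:81585244-81586695 over its exon 1, centred 572 bp downstream of the nearest start, and 109 at an internal start. Crebbp had no peak within 1 kb of any of its 6 coding starts, although the CpG ratio of 1.03 placed it in the tenth decile, where 93.4% of genes were bound. The peak closest to its outermost starts lay 12490 bp downstream, in intron 1 at chr16:4200617-4201229, with a score of 159.9. The other 4 Crebbp peaks scored from 86.1 to 133 and lay in introns 2, 3 and 30 and exon 31. Both of its CpG-dense starts, with ratios of 1.00 and 1.03, were therefore without a listed peak, and no other member had such a start without one.

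The 4 coactivators were all bound, with a median highest score of 592. Ncoa2 (TIF2), a p160 coactivator of nuclear receptors, scored 1531 at chr1:13372193-13375071, above 97.3% of bound genes, under a peak 2879 bp wide that reached into intron 1. Ncoa3 (SRC-3) scored 599 at chr2:165991994-165993260, centred 9 bp from its start. Ncoa1 (SRC-1), the third gene of this family, scored 219.8 at chr12:4476197-4477178 in intron 1 and 90.4 just upstream of the same start, both below the 437 that was the median of its CpG decile. Med1, the Mediator subunit that nuclear receptors contact, scored 585 at chr11:98192424-98193715.

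Ncor1, the scaffold that carries Hdac3 to unliganded nuclear receptors, scored 277 at chr11:62458085-62459432 over its 5′ end, with 213 at a peak centred 620 bp downstream of a start and 116 near a start far into the gene. The main peak also lay 298 bp from the start of Pigl, which runs the other way. Only 5 of the 14 annotated Ncor1 starts had a peak, and the score stood below the median of its CpG decile (437).

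The bromodomain genes ranged from 84.1 to 2053. Brd2, a BET protein that binds acetylated histones, scored 2053 at chr17:34120833-34123734, above 98.9% of bound genes, under the widest member peak at 2902 bp, and had a further promoter peak of 849 in the gene. H2-DMa, on the other strand, starts 549 bp from the midpoint of the main peak. Brd3, another BET protein, scored 753 at chr2:27475289-27476668, centred 292 bp upstream of an internal start and 31684 bp inside the gene. Brd1, the scaffold of acetyltransferase complexes of the MYST family, scored 84.1 at chr15:88733894-88734460 with a CpG ratio of 0.992, in a decile whose bound genes had a median of 437.

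Nearly all genes on both sides of the comparison were bound, 13 of 14 deacetylases and 12 of 13 acetyltransferases and coactivators. Over all protein-coding genes 55.8% were bound, and 86.6% of those with a promoter CpG ratio above the median of all genes. The shares bound in each gene's own CpG decile add up to 10.4 deacetylases and 11.1 acetyltransferases and coactivators. Both sides were chosen with earlier results known, and Hdac6 and Hdac8, which had no peak, are not among the 14. The highest promoter score had a median of 374 (quartiles 223 and 588, range 123 to 1191) in deacetylases, against 543 (quartiles 312 and 645, range 77.6 to 1531) in acetyltransferases and coactivators. The difference of medians was -169 score units, smaller than the distance between the quartiles within each side, and the ranges overlapped almost throughout. Peaks among the highest-scoring 10% of the list lay at 6 of 14 deacetylases and 8 of 13 acetyltransferases and coactivators. The difference of medians turned in part on Sirt1. With the principal start of each gene alone, a choice made after seeing the data, Sirt1 scored 255 and the medians were 279 in deacetylases and 543 in acetyltransferases and coactivators.

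CpG content moved with this difference. The median CpG ratio was 0.640 in deacetylases, 0.852 in acetyltransferases and coactivators, and 0.614 over all genes. The 300 bp around the midpoints of the highest peaks had a median GC content of 58.0% in deacetylases and 67.0% in acetyltransferases and coactivators, against 61.0% over all promoter peaks. The latter include peaks that are not the highest of a gene. Set against the median of each gene's own CpG decile, 8 of 13 bound deacetylases stood above it, as did 9 of 12 bound acetyltransferases and coactivators. The part of CpG content in the difference of scores was not tested. Across the 29 bound members the CpG ratio and log10 score were weakly related (Pearson r = 0.235, Spearman rho = 0.245), and over all 12199 bound genes they gave a Pearson r of 0.314.

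Several promoter peaks were shared with a neighbour. The highest promoter peak lay within 1 kb of a coding start of another gene at 5 of 13 deacetylases (38.5%) and at 1 of 12 acetyltransferases and coactivators (8.33%), against 19.7% of all bound genes. The deacetylases were Hdac3, Sirt1, Sirt2, Sirt3 and Sirt6, the acetyltransferase was Kat2a, and Ncor1 and Brd2 made 8 of 29 members in all. At these 8 genes 1 score describes a peak near starts of both genes, and the score alone cannot assign it to either. The midpoints were not equally placed. They lay 62 bp from Sirt2 and 33 bp from Nfkbib, but 90 bp from Sirt6 and 833 bp from Ankrd24, and 9 bp from Kat2a and 1376 bp from Hspb9.

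Within these genes, nearly all CpG-dense starts had a peak. The 31 genes have 132 distinct coding starts, of which 80 (60.6%) had a peak within 1 kb, against 52.3% of 54361 starts of all genes. Of member starts above the median CpG ratio of all starts (0.523), 66 of 68 (97.1%) had a peak, against 84.1% of all such starts, and the pair without one were the Crebbp starts. Below that median, 14 of 64 member starts (21.9%) had a peak, against 20.5% of all such starts. Among these CpG-poor starts, a peak was present at 10 of 27 in deacetylases and at 2 of 22 in acetyltransferases and coactivators. Starts of a gene can lie within 1 kb of each other and then share a peak, so they are not independent.

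**Figure D2:**
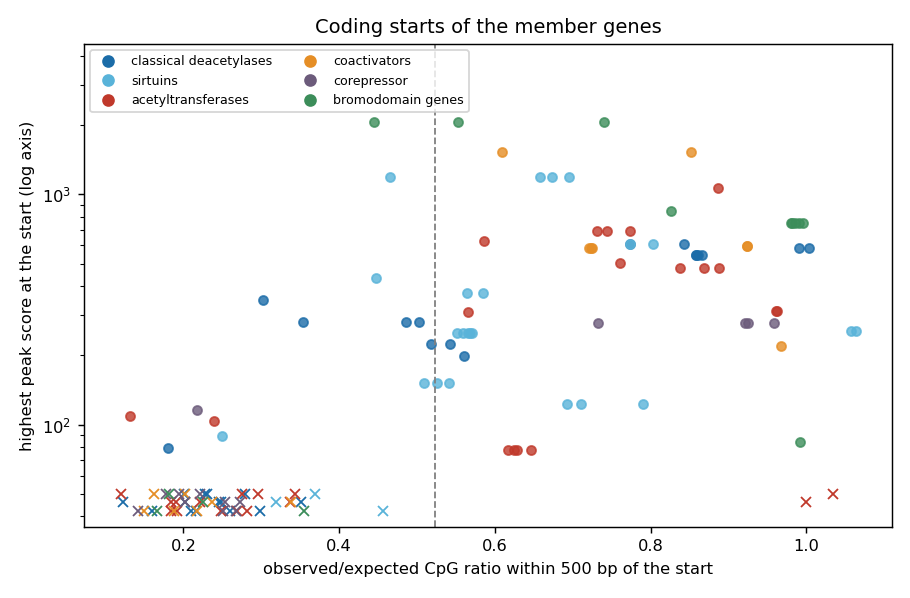
Each of the 132 coding starts of the 31 genes, by its observed over expected CpG ratio within 500 bp and the score of the highest peak within 1 kb (log axis), coloured by role. Crosses along the bottom are starts without a peak, spread in height only to keep them apart, and the dashed line is the median ratio of 0.523 over all starts. Right of the line the crosses near a ratio of 1.0 are the Crebbp starts.

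Most of the highest promoter peaks sat on a start. The midpoint was within 300 bp of a coding start of the gene at 22 of 29 members, 11 of 13 deacetylases and 7 of 12 acetyltransferases and coactivators, with 16 midpoints upstream and 13 downstream. The farthest downstream were Kat2b at 834 bp, Kat6a at 666 bp and Ep300 at 572 bp, and the farthest upstream were Sirt1 at 1012 bp and Hdac7 at 614 bp. Just inside the 1 kb limit lay the Sirt1 peak and the Ncor1 peak of 116, whose midpoint was 1199 bp upstream of its start. Just outside lay a Sirt2 peak of 101 at 1437 bp and a Sirt4 peak of 223 at 1523 bp, both upstream.

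**Figure D3:**
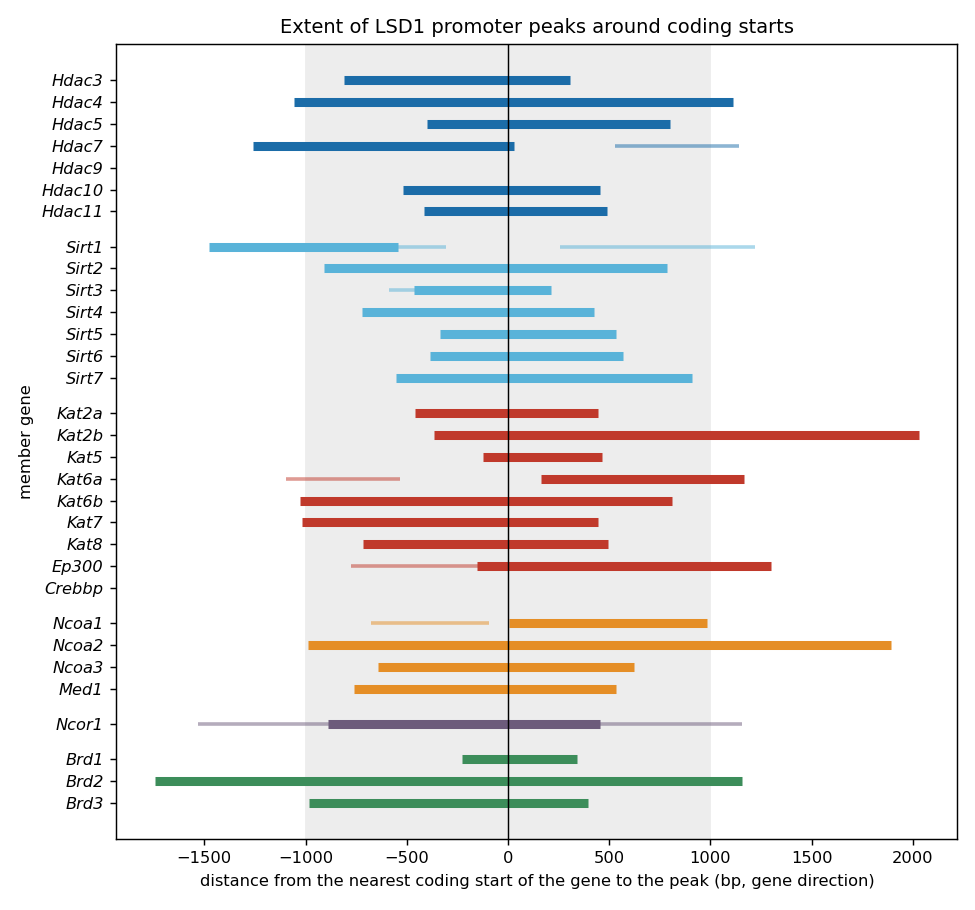
Extent of LSD1 promoter peaks along the gene direction, as distance in bp from the nearest coding start of the same gene (line at 0, grey band within 1 kb). Thick bars are the highest promoter peak of each gene, thin lines its other promoter peaks, which may belong to a different start, coloured by role as in the score plot. Bars of most genes span the start, those of Sirt1, Kat6a and Ncoa1 do not, and Hdac9 and Crebbp have none.

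From 10 kb upstream to the gene end, a peak was found at all 31 genes, against 69.8% of all protein-coding genes. The share was 93.6% over genes with a promoter CpG ratio above the median of all genes. At the 29 promoter-bound members the promoter peaks lie in this window, so this count largely repeats the promoter call. There were 144 such peaks, 43 of them promoter peaks and 101 elsewhere, with a median of 4 per member against 1 over all genes. The members were also longer, with a median of 41140 bp against 17380 bp over all genes. Over the 31 genes, log10 length and the number of nearby peaks gave a Pearson r of 0.496 (Spearman rho = 0.443), and the members had more than the median of their gene length decile in 21 cases and fewer in 4. Deacetylases had a median of 4.5 nearby peaks and acetyltransferases and coactivators 4, and 13 of 14 deacetylases exceeded the median for their length against 6 of 13 acetyltransferases and coactivators. The share of all genes above the median for their length was not counted. Per 10 kb of window the medians were 1.12 in deacetylases, 0.581 in acetyltransferases and coactivators and 0.370 over all genes. The genes differed in length, with medians of 20550 bp in deacetylases, 80607 bp in acetyltransferases and coactivators and 17380 bp over all genes. Promoter peaks and the fixed 10 kb upstream weigh more in the density of a short gene, and the part of length was not tested.

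Part of the deacetylase count lay beside neighbouring genes, which are named here after their values were seen. Of the 101 peaks outside promoters, 30 were nearer to a coding start of another gene, and 10 lay within 1 kb of such a start, 8 of them near deacetylases. A peak of 615 at the end of Hdac3 lay 3 bp from the start of Diaph1. Sirt7 had 6 nearby peaks, of which 1 with a score of 616 lay 48 bp from the start of Pcyt2 and 4, with scores from 82.7 to 394, lay closest to Mafg. With peaks nearer to another gene left out, the medians were 2.5 in deacetylases and 3 in acetyltransferases and coactivators, and with the gene body alone they were 2 in deacetylases and 3 in acetyltransferases and coactivators. With 50 kb upstream the median was 6 on both sides, so the higher median in deacetylases was not kept under any of these rules.

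Away from promoters the scores were ordinary for the list, with a median of 102 against 111 over all peaks, and 43 of the 101 stood above that median. By place, 58 lay in introns, 26 upstream, 6 in exons, 7 elsewhere in the gene body and 4 past the gene end. The largest cluster in a gene was at Kat6b, with 13 nearby peaks, 11 of them outside promoters with scores from 81.1 to 249. With peaks nearer to another gene left out, Kat6b kept 8, fewer than the 10 at Hdac7 and the 9 at Hdac9. Hdac7 had 11 nearby peaks, the highest outside a promoter being 320 at chr15:97825721-97826378 in intron 1, and Hdac9 had 11 as well. Kat2b and Ncoa3 had 8 each, Hdac5 had 7 and Hdac4 and Sirt7 had 6.

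The highest score outside a promoter was at Sirt4, where a peak of 762 at chr5:115489217-115490801 lay 5284 bp upstream, closer to Sirt4 than to any other coding start. It exceeded the promoter score of the gene itself (374), and 3 further upstream peaks scored 223, 176 and 137. Ep300 had a peak of 389 at chr15:81649405-81650623 over exon 31, Kat2a one of 345 at 8284 bp upstream, and Ncoa1 one of 248 in intron 21. The Ep300 peak was nearer to a start of L3mbtl2 (13875 bp) and the Kat2a peak to one of Hspb9 (6827 bp). Genes at the low end were Sirt5, Kat5 and Kat7 with 1 nearby peak each, their promoter peak. The others, in order of number, were Sirt1, Sirt4, Ep300, Crebbp and Ncoa1 with 5, Hdac11, Kat8, Ncor1, Brd2 and Kat2a with 4, and Sirt2, Sirt6, Kat6a, Ncoa2, Brd1 and Brd3 with 3. Hdac3, Hdac10, Sirt3 and Med1 had 2.

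**Figure D4:**
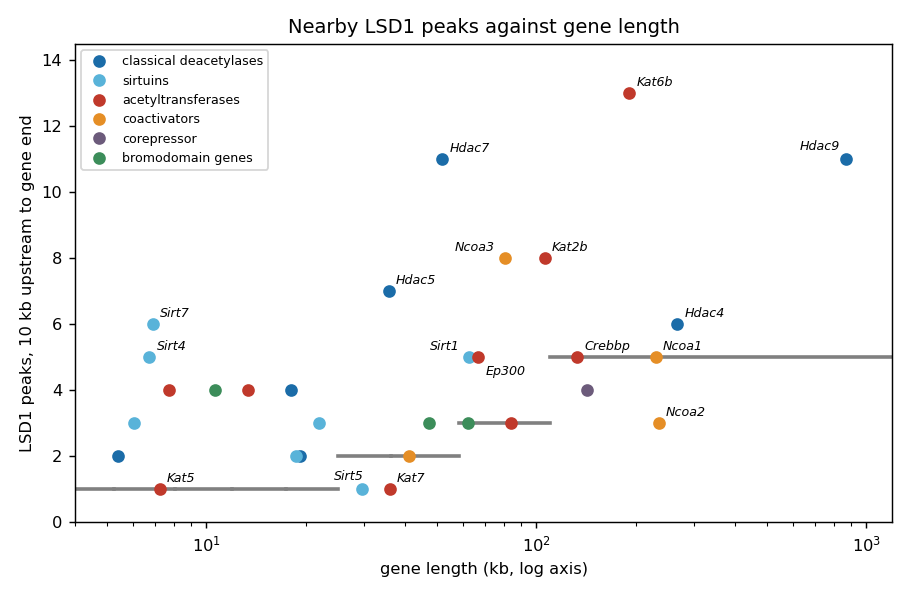
Number of LSD1 peaks from 10 kb upstream to the gene end against gene length in kb (log axis), 1 point per gene, coloured by role. Grey lines give the median number over all protein-coding genes in each length decile. Kat6b, Hdac7 and Hdac9 stand highest at 13, 11 and 11 peaks, and Kat5, Sirt5 and Kat7 lowest at 1.

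Short exact motifs were read in 300 bp around the midpoint of the highest promoter peak, on both strands, and compared with all 14423 promoter peaks. The most frequent was GGGCGG, at 17 of 29 members (58.6%) against 49.4% of promoter peaks, in 6 of 13 deacetylases and 8 of 12 acetyltransferases and coactivators. Kat5, Brd1 and Brd3 held 5 copies each and Sirt3 held 4. The ETS motif CCGGAAGT was found at 4 members (13.8%, against 3.87%), which were Hdac10, Sirt1, Sirt6 and Kat8. The NFY motif AGCCAAT was found at Hdac4, Sirt2 and Med1 (10.3%, against 5.78%), and the E-box CACGTG at Kat6a and Brd2 (6.90%, against 7.02%). These shares count letters in 1 window per gene and say nothing of the binding of a factor.

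Other motifs each occurred at 1 member: CGCATGCG (NRF1) at Sirt6, AAGATGGC (YY1) at Ncoa3, and TGANTCA (AP-1) at Hdac7, where it stands in the sequence shown above. None of the 29 windows held TGACGTCA (CRE), ACTACAAT (ZNF143 and THAP11), TCAAGGTCA (oestrogen-related receptors) or TTGCGCAA (C/EBP), which occurred in 1.68%, 0.763%, 0.354% and 0.180% of all promoter peaks. Their absence says only that these letters are not in these windows. GGGCGG can overlap other GC-rich motifs, and the windows of wide peaks such as those of Kat2b and Ncoa2 cover a small part of the peak.

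The wider acetylation machinery was mostly bound too. All 22 other acetyltransferases and complex subunits had a promoter peak (median highest score 359), led by Ing3, a NuA4 subunit, at 1082 and Tada2b, a SAGA subunit, at 898. All 11 genes of NAD and acetyl-CoA supply were bound (median 387), led by Acly, which makes acetyl-CoA from citrate, at 1331 and Nmnat2, an NAD-synthesising enzyme, at 1234. Of 16 other coactivators and Mediator genes 14 were bound (median 272), led by Cited2, which binds the p300 and CBP proteins, at 2639 and Carm1, an arginine methyltransferase coactivator, at 577, and Cited1 and Med15 were unbound.

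The other deacetylases and NCoR complex genes were bound in 7 of 9 cases (median 269). Nrip1, a nuclear receptor corepressor that restrains brown fat genes, scored 436, while Hdac6 and Hdac8, both on chromosome X, had no peak at all from 10 kb upstream to the gene end. Other bromodomain and acetyl-lysine reader genes were bound in 8 of 11 cases (median 386), led by Mllt3 at 666 and Yeats4 at 570, and Brd9, Brdt, which is testis-specific, and Bptf were unbound. Set beside the 55.8% of all protein-coding genes, each of these 5 lists had the larger share. Genes with a promoter CpG ratio above the median of all genes were bound in 86.6% of cases. Below this lay the other deacetylases and NCoR complex genes (77.8%) and the other reader genes (72.7%). The other coactivators and Mediator genes were near it (87.5%), and the lists with all genes bound were above it. The part of CpG content in these shares was not tested.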

How the data were processed

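The LSD1 ChIP and Input libraries, 1 each, were run on a HiSeq 2000, with Bowtie2 mapping to mm10, per the labels' protocols. The submitters' processing notes name MACS 1.41. Their settings, and whether the Input library served in peak calling, were not stated in the sources. The only values are a score per peak, deposited by the authors on an unstated scale, and this score served to rank and describe peaks. Without counts, depth is unknown and intervals are not given.

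Peaks were joined to protein-coding starts and gene bodies of GENCODE M21 on GRCm38.p6, with the first base counted as 1. Promoter peaks overlapped 1 kb around a start by at least 1 bp, and nearby peaks lay from 10 kb upstream to the gene end. CpG ratios used 500 bp on either side of a start. Motifs were exact matches of 11 consensus sequences in 300 bp. Python 3.11.15, pandas 2.3.3, NumPy 2.4.6, SciPy 1.17.1 and matplotlib 3.10.9 were used, and the overlap rules were tested on simulated data.

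The members and lists were chosen with earlier results of these data known. Every member is named, with the 2 highest-scoring and the first unbound genes of each wider list, and neighbours with a start within 1 kb of a promoter peak. The value of 1 gene of the wider lists is not reported here. Deacetylases were set against acetyltransferases and coactivators without a test. Alternatives changed the promoter width, overlap rule, starts, peaks, window and gene sets 1 at a time.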

Additional observations from a re-analysis of the deposited data

How the results depend on the processing

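The number of promoter-bound members was between 26 and 30 under every promoter width, overlap rule and set of starts tried, against 29 as reported. Over all protein-coding genes the share bound ran from 49.1% with support level 1 transcripts to 59.1% at 2.5 kb, against 55.8% as reported. With the outermost start alone that share was 52.6%. With the outermost start alone Hdac7, Kat6b and Brd3 lost their peak, with support level 1 transcripts Brd1 did, and at 2.5 kb Hdac9 gained one of 76.8 and Kat5 scored 248 in place of 77.6. With the highest-scoring 10% of peaks, 16 members (51.6%) and 6 deacetylases (42.9%) were bound. The share was 22.8% over all protein-coding genes and 40.2% over those with a promoter CpG ratio above the median of all genes. The difference of median scores, deacetylases minus acetyltransferases and coactivators, kept its sign in every alternative and ran from -263.99 to -16.845. It was -263.99 with promoters of 500 bp, with the midpoint required inside the promoter, with support level 1 transcripts and with the principal start alone, where Sirt1 scored 255, and -16.845 with the highest-scoring 10% of peaks. The median of nearby peaks in deacetylases was 2 with the gene body alone and 2.5 with peaks nearer to another gene left out, against 4.5 as reported. GGGCGG was found in 82.8% of member windows of 600 bp, against 66.1% of all promoter peaks with the same window. Of the alternatives, 57 values stayed within 1.5 times the reported one, or for motif shares within its Wilson interval, and 10 did not. That interval treats genes as independent draws, which they are not, so it served only as a cut-off. Counted as staying were ETS at 6.90% of 200 bp windows (2.61% of all promoter peaks) against 13.8%, and NFY at 17.2% of 600 bp windows (10.0%) against 10.3%. With 1 library, leaving out a replicate was not possible. No paired analysis was possible because the groups hold 1 library each and Input has no values.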
